A study of Mus musculus with 10 samples.

Results

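Collagens are matrix proteins whose chains wind into a long triple helix, which needs a glycine repeated at a fixed step along each chain. Fibrillar collagens assemble into the cable-like fibrils that carry load between muscle bundles, and in the heart they are made mainly by fibroblasts. Basement membrane collagens form the sheet that wraps each cardiomyocyte and capillary, and the other types tie fibrils together, form fine networks or sit in cell membranes.

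The mouse genes for collagen chains were taken as all protein-coding genes whose symbol has the form Col, a type number, the letter a and a chain number, which gave 44 of the 57185 genes with counts. By type, 11 were fibrillar, 8 belonged to the basement membrane and 25 were of other types. A gene was tested where it had more than 10 counts in at least 6 of the 10 mice, and 35 did: 8 fibrillar, 8 basement membrane and 19 other genes.

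Poly(A)-selected RNA from the apical part of the heart ventricles of 5 MLPKO and 5 MLPKO-cRADKO male mice was sequenced as 1 library per mouse. MLPKO animals have no muscle LIM protein (gene Csrp3), a model of dilated cardiomyopathy. Both genotypes carried the MLP knockout and floxed alleles of Rrad, the gene for the calcium channel inhibitor RAD, and every mouse received 1 tamoxifen injection of 100 mg per kg at 10 weeks of age, with hearts taken 1 month later. In MLPKO-cRADKO the MYH6-MerCreMer transgene, which is active in cardiomyocytes, then deleted Rrad, while the MLPKO mice had no Cre. The labels give an age of 16 weeks for all mice. No mice without the MLP knockout were among the 10, and no protein was measured here.

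The total count per library ranged from 33457406 to 49965101. Rrad had a normalized count of 5774 to 11644 in MLPKO and 5562 to 8361 in MLPKO-cRADKO, so the genotypes overlapped (log2 fold change −0.38, SE 0.20, edgeR adjusted p = 0.29). Csrp3 reads were counted in every mouse, at 41726 to 134796 in MLPKO and 28553 to 48663 in MLPKO-cRADKO, which overlapped. The log2 fold change of Csrp3 was −1.08 (SE 0.29, edgeR adjusted p = 0.067, DESeq2 adjusted p = 0.036). The counts cover whole genes, so they do not check the deleted parts. Cardiomyocyte, fibroblast, endothelial and mural cell markers were all present, and the skeletal muscle myosins Myh1 and Myh4 had 3 or fewer counts in every mouse. Over all 13453 genes tested, the median log2 fold change was 0.011.

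The gene structures set the fibrillar class apart from the basement membrane class. Many exons of fibrillar collagen genes are 54 bases long and code for 6 turns of the glycine repeat. The annotation (GENCODE M39, GRCm39) gives 21 inner coding exons of this length in Col1a1 and 24 in Col3a1, against 2 in Col4a1 and 3 in Col4a5, and the helix of the type IV chains is broken at intervals. Over the classes there were 21 to 33 such exons per fibrillar gene and 1 to 3 per basement membrane gene, while the other types ranged from 0 to 28, with the most in Col22a1. The exons below are shown because they make this difference visible. The fibrillar exons were picked for even spacing of the glycine codons and the type IV exons for wider gaps, so these spacings are no separate result. They are read 5′ to 3′ in the sense of the gene, and capitals mark the in-frame glycine codons (GGN).
Col1a1 coding exon 9, chr11:94830944-94830997, plus strand: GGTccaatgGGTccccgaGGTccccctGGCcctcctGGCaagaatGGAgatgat
Col3a1 coding exon 6, chr1:45364520-45364573, plus strand: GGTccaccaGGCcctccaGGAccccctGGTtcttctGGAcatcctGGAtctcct
Col4a1 coding exon 9, chr8:11294486-11294569, minus strand: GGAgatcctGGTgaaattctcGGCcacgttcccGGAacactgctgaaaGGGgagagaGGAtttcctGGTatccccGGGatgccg
Col4a4 coding exon 26, chr1:82471214-82471321, minus strand: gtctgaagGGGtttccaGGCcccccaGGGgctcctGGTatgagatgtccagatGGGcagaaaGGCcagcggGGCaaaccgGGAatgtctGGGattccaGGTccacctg
Col4a5 coding exon 9, chrX:140361668-140361748, plus strand: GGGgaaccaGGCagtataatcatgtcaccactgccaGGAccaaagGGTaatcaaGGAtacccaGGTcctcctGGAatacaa
In both fibrillar exons the glycine codons, 6 of 18, are evenly spaced with 2 codons between them. In the type IV exons the glycine codons also sit at wider gaps, with 8 of 28 codons in the Col4a1 exon and 7 of 27 in the Col4a5 exon.

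Levels of the 44 genes spanned about 5 orders of magnitude on the axis of normalized count per kb of transcript, a scale that allows genes of unequal length to be compared. Col4a1 (4462 per kb, mean of the 10 mice) and Col4a2 (3418), the chains of the ordinary basement membrane network, stood highest. The fibrillar chains Col3a1 (2114), Col1a2 (1669.5) and Col1a1 (1558) followed, then Col15a1 (1261), a collagen of the basement membrane zone of capillaries and muscle, and the beaded filament chains Col6a1 (1085) and Col6a2 (875). The remaining type IV chains were much rarer, with Col4a5 at 461, Col4a4 at 75.8, Col4a3 at 40.0 and Col4a6 at 10.5 per kb. All collagen genes together took 0.212% to 0.432% of the normalized counts of a mouse, and Col4a1 and Col4a2 made up 37.9% to 48.7% of that.

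**Figure D1:**
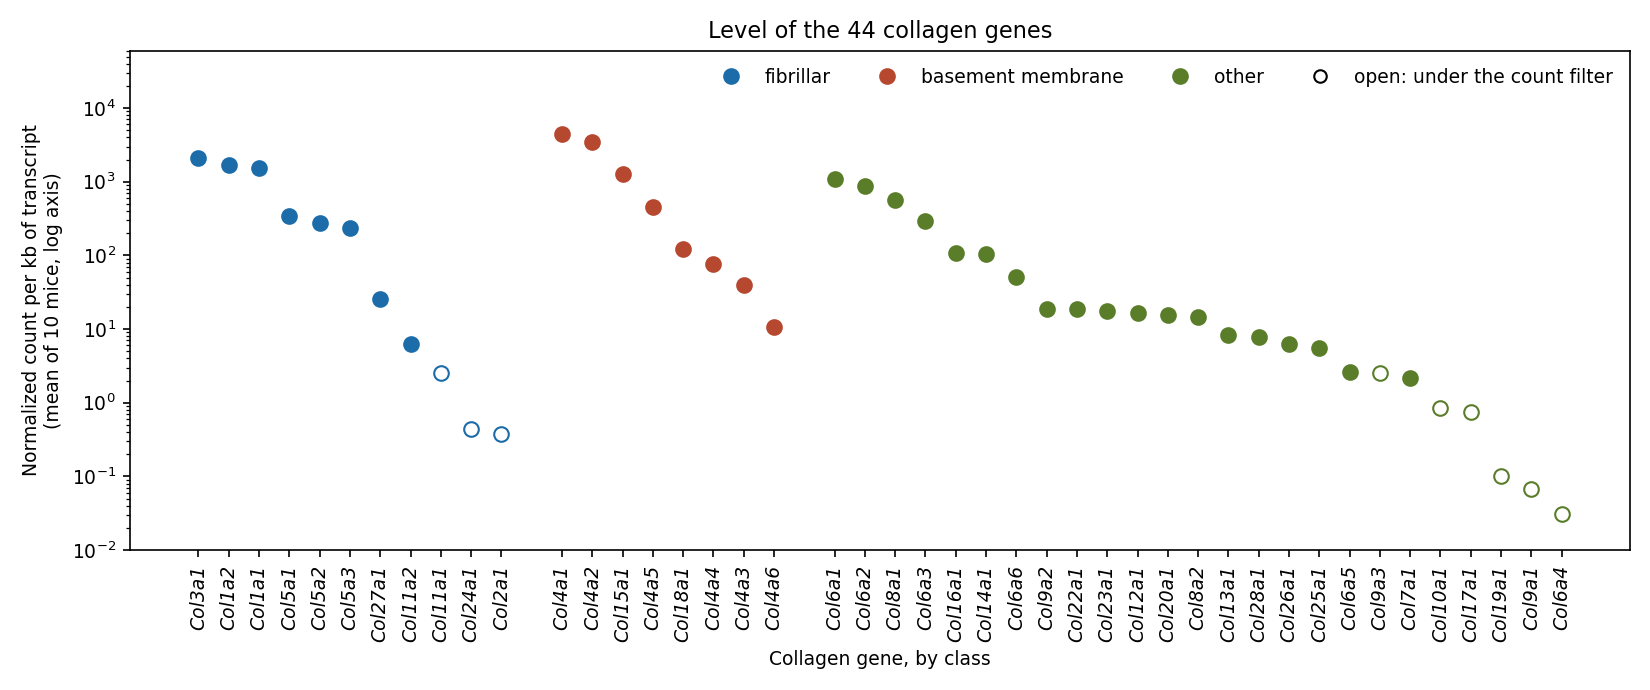
Normalized count per kb of transcript (mean of 10 mice, log axis) for each of the 44 collagen genes, ordered within the fibrillar, basement membrane and other classes; open circles are genes under the count filter. Col4a1 stands highest at 4462 per kb, and the 9 genes under the filter all lie below 3 per kb.

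The 9 genes that were not tested were Col2a1, Col11a1 and Col24a1 among the fibrillar chains and Col6a4, Col9a1, Col9a3, Col10a1, Col17a1 and Col19a1 among the others. Col11a1, which had more than 10 counts in 5 mice, was just outside the filter, and Col26a1, with 6 such mice, was just inside. Of these 9, Col2a1, the main chain of cartilage, was at 0 in all 5 MLPKO mice and had 14 counts in MLPKO-cRADKO mouse 1 and 2 in mouse 3.

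The question put to the collagen genes was which of them differed between MLPKO and MLPKO-cRADKO, and whether the types differed in this. Of the 35 tested, 1 gene passed in edgeR (adjusted p under 0.05 over all 13453 genes). This was Col4a3, which fell. The background is that 1.80% of all genes tested were called lower and 0.944% higher. No collagen gene was called higher by edgeR, and 2 were higher and 6 lower at an unadjusted p under 0.05, where 10.1% and 11.5% of all genes were. DESeq2, the tool of the study, called 4 lower (Col4a3, Col4a4, Col4a5 and Col9a2) and 1 higher (Col6a6), against 5.84% and 3.81% of all genes. Limma-voom called Col4a3 and Col9a2 lower and none higher, against 1.61% and 0.914%.

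The direction of the whole family was not stable. In 25 of the 35 genes the log2 fold change was below 0, with a median of −0.23, but without MLPKO mouse 2 the median was 0.0034. That mouse had the highest normalized count of all 10 in 22 of the 35 genes, and in its own genotype it was highest in 28. In MLPKO-cRADKO, mouse 1 was highest in 22 of the 35. Without both mice the median was −0.14, and edgeR called 4 collagen genes lower (Col4a3, Col4a4, Col4a5 and Col9a2) and 0 higher, against 1.45% and 0.691% of all genes. Leaving out these 2 mice was decided after seeing the values of these same genes, so the calls are no separate evidence.

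**Figure D2:**
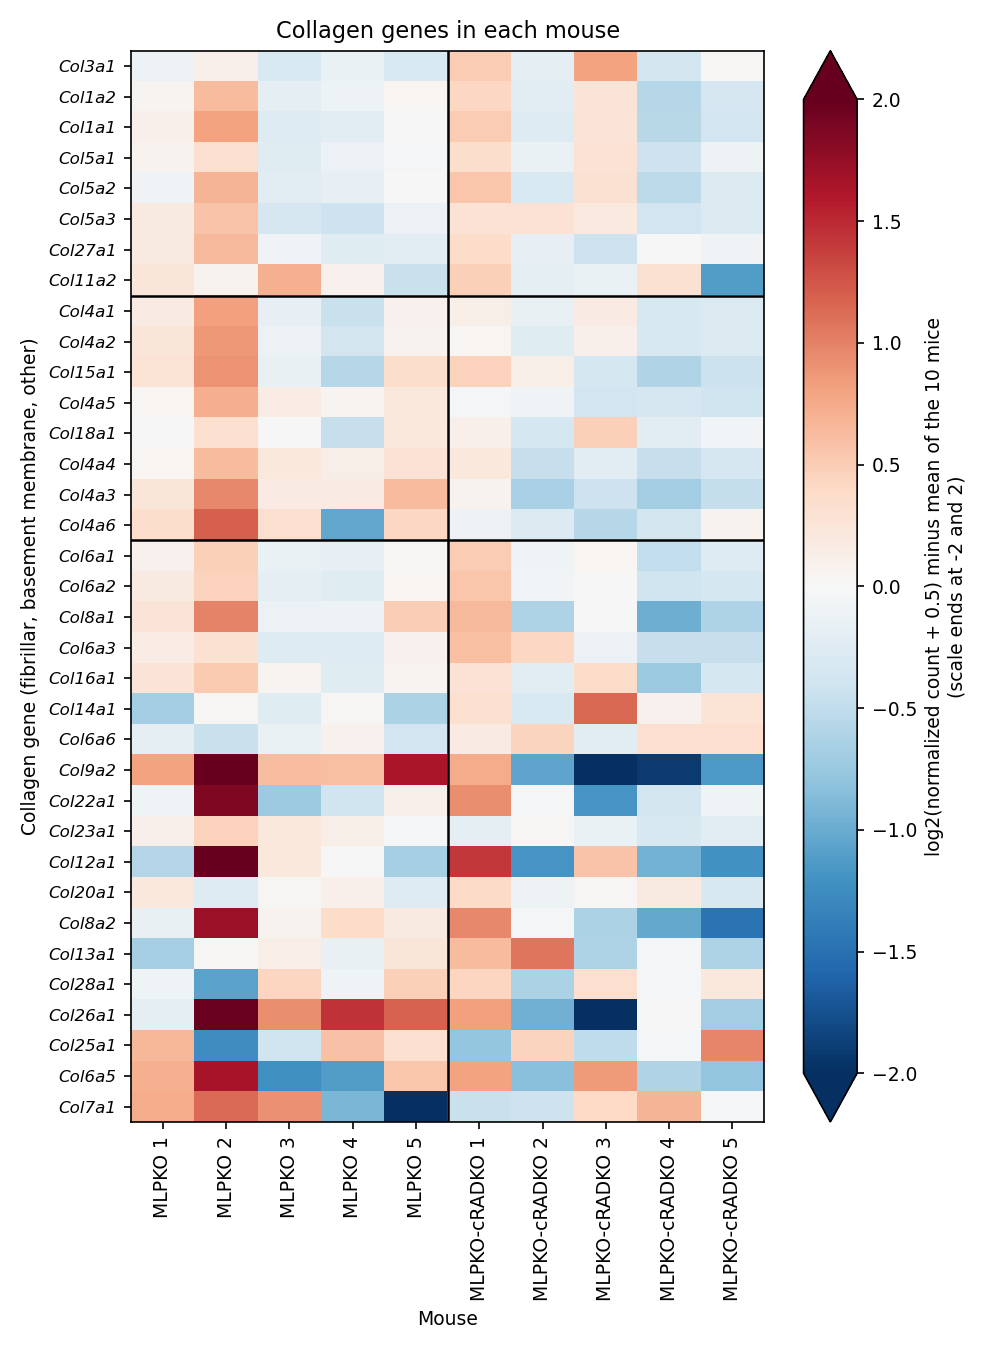
Each row is 1 of the 35 collagen genes tested and each column 1 mouse; colour gives log2(normalized count + 0.5) minus the mean of the 10 mice for that gene, and lines separate the genotypes and the classes. The column of MLPKO mouse 2 is red in most rows, and it was the highest of the 10 mice in 22 genes.

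**Figure D3:**
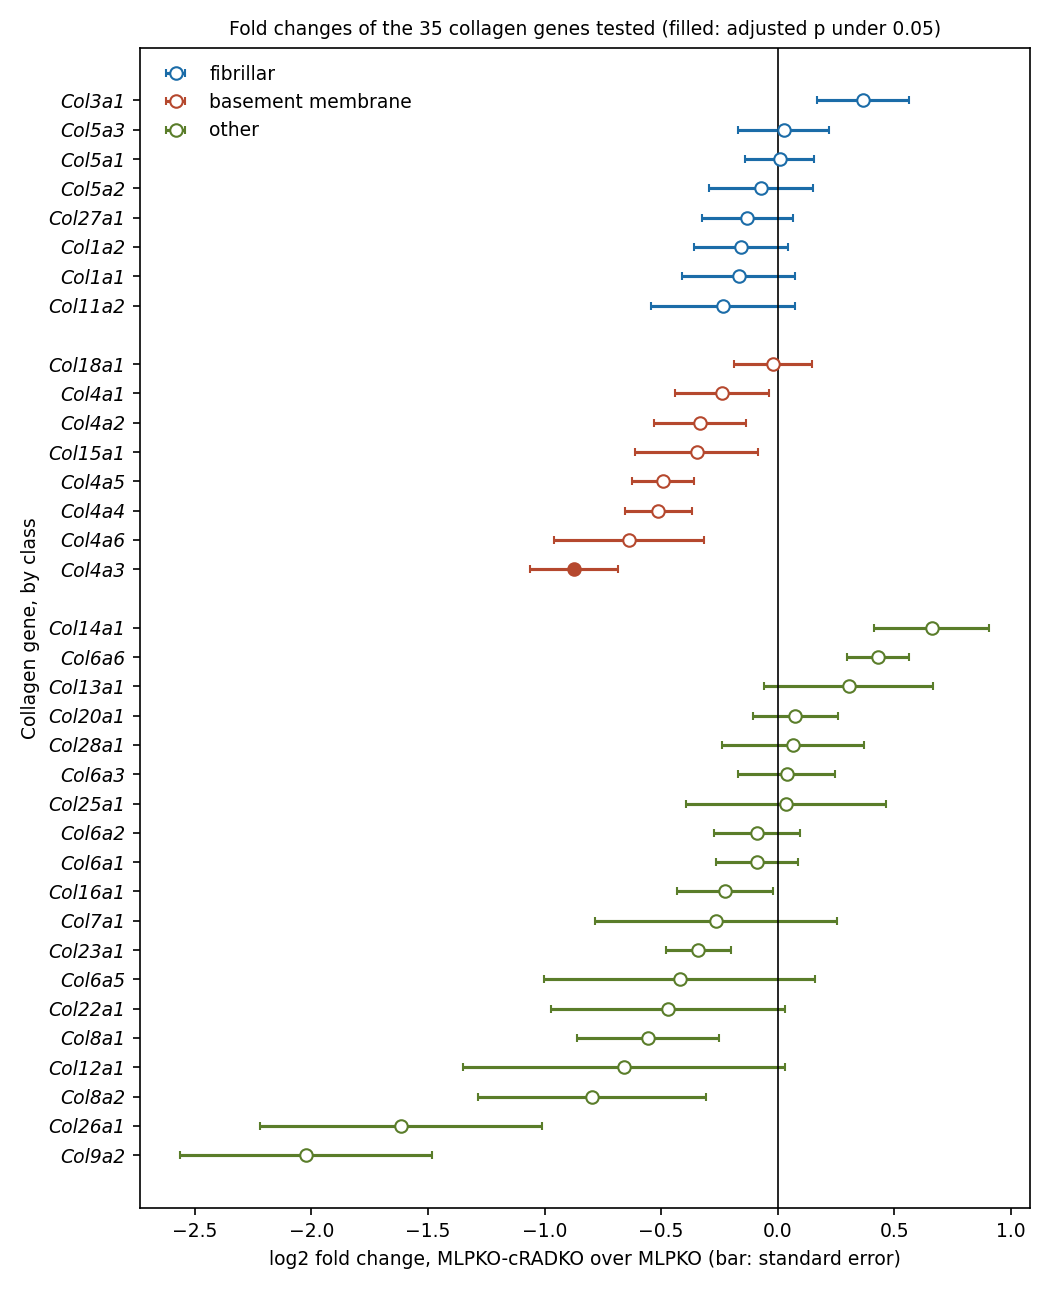
Log2 fold change of MLPKO-cRADKO over MLPKO with its standard error for the 35 genes tested, by class; the filled point has an edgeR adjusted p under 0.05. All 8 basement membrane genes lie below 0, from −0.87 for Col4a3 to −0.02 for Col18a1, and the fibrillar genes lie between −0.23 and 0.37.

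In the basement membrane class all 8 genes had a log2 fold change below 0, with a median of −0.42, which was −0.24 without MLPKO mouse 2. That mouse was the highest of all 10 in 7 of the 8 genes, and without it Col18a1 was at 0.057. Type IV collagen is built as 3 kinds of trimer. Col4a1 and Col4a2 chains form the common one, Col4a3, Col4a4 and Col4a5 chains form a second, known from the basement membranes of kidney, lung and inner ear, and Col4a5 and Col4a6 chains form the third.

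Col4a3 (chr1:82564642-82699780, plus strand) had normalized counts of 377, 622, 358, 359 and 497 in MLPKO mice 1 to 5 and 336, 204, 241, 197 and 231 in MLPKO-cRADKO mice 1 to 5. Every MLPKO-cRADKO mouse was below every MLPKO mouse, with mouse 1 of MLPKO-cRADKO close to the lowest MLPKO mice. The mean went from 443 ± 116 (SD, n = 5) to 242 ± 55.9 (SD, n = 5), which is 54.6% of MLPKO (log2 fold change −0.87, SE 0.19, edgeR adjusted p = 0.037). The fold change lay between −1.02 and −0.72 when each mouse was left out in turn. The adjusted p was then above 0.05 without MLPKO mouse 1 (0.060) or 5 (0.088) and without MLPKO-cRADKO mouse 2 (0.075), 3 (0.081), 4 (0.086) or 5 (0.093).

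Col4a4 (chr1:82426144-82564800, minus strand), its neighbour and partner chain, had 781, 1186, 876, 829 and 931 in MLPKO and 877, 554, 649, 550.5 and 600.2 in MLPKO-cRADKO. The genotypes overlapped through MLPKO-cRADKO mouse 1 alone, and the other 4 MLPKO-cRADKO mice were below all MLPKO mice. The log2 fold change was −0.51 (SE 0.14, edgeR adjusted p = 0.073, DESeq2 adjusted p = 0.014). Without MLPKO-cRADKO mouse 1 the edgeR adjusted p was 0.035, the only pass when each mouse was left out in turn, where it reached 0.16.

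Col4a5 (chrX:140258354-140472231, plus strand) had 3042, 4876, 3271, 3078 and 3412 in MLPKO and 2908, 2822, 2259, 2346 and 2241 in MLPKO-cRADKO. The genotypes did not overlap, although MLPKO-cRADKO mice 1 and 2 came close to MLPKO mice 1 and 4. The log2 fold change was −0.49 (SE 0.13), which did not pass in edgeR (adjusted p = 0.067) and passed in DESeq2 (adjusted p = 0.010). Without MLPKO mouse 4 the edgeR adjusted p was 0.047, the only pass when each mouse was left out in turn, where it reached 0.15. Without that mouse 826 of all genes tested were called, against 369 with all mice. Col4a3 and Col4a5 were the only 2 of the 35 collagen genes with no overlap, both lower in MLPKO-cRADKO, and no collagen gene had every MLPKO-cRADKO mouse above every MLPKO mouse. Over all genes tested, 3.98% were lower and 2.64% higher without overlap.

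Col4a6 (chrX:139948399-140257072, minus strand) had 82.2, 147, 80.8, 30.9 and 85.7 in MLPKO and 59.4, 53.1, 42.9, 49.7 and 67.3 in MLPKO-cRADKO. MLPKO mouse 4 was the lowest of all 10, so the genotypes overlapped (log2 fold change −0.64, SE 0.32, edgeR adjusted p = 0.28).

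Of the abundant pair, Col4a1 (chr8:11248423-11362826, minus strand) had 31915, 50603, 25676, 21121 and 30504 in MLPKO and 31175, 25873, 32080.4, 22808 and 23391 in MLPKO-cRADKO. Col4a2 (chr8:11362471-11499287, plus strand) had 26370.2, 40849, 20659, 17247 and 23493 in MLPKO and 22923, 18812, 24045, 17939 and 18263 in MLPKO-cRADKO. In both genes MLPKO mouse 2 was far above the rest and the remaining mice of both genotypes were mixed. The log2 fold changes were −0.24 (SE 0.20, edgeR adjusted p = 0.53) for Col4a1 and −0.33 (SE 0.20, edgeR adjusted p = 0.35) for Col4a2. Without MLPKO mouse 2 they were −0.01 and −0.11.

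Set against Col4a1 in the same mouse, Col4a3 was at a ratio of 0.0118 to 0.0170 in MLPKO and 0.0075 to 0.0108 in MLPKO-cRADKO, which did not overlap. The ratio of Col4a3 to Col4a4 was 0.409 to 0.534 in MLPKO and 0.358 to 0.385 in MLPKO-cRADKO, also without overlap. In contrast, the Col4a5 to Col4a1 ratio overlapped, at 0.0953 to 0.146 in MLPKO and 0.0704 to 0.109 in MLPKO-cRADKO. So did the Col4a4 to Col4a1 ratio, at 0.0234 to 0.0393 in MLPKO and 0.0202 to 0.0281 in MLPKO-cRADKO. These ratios were chosen after the values were seen and were not tested.

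**Figure D4:**
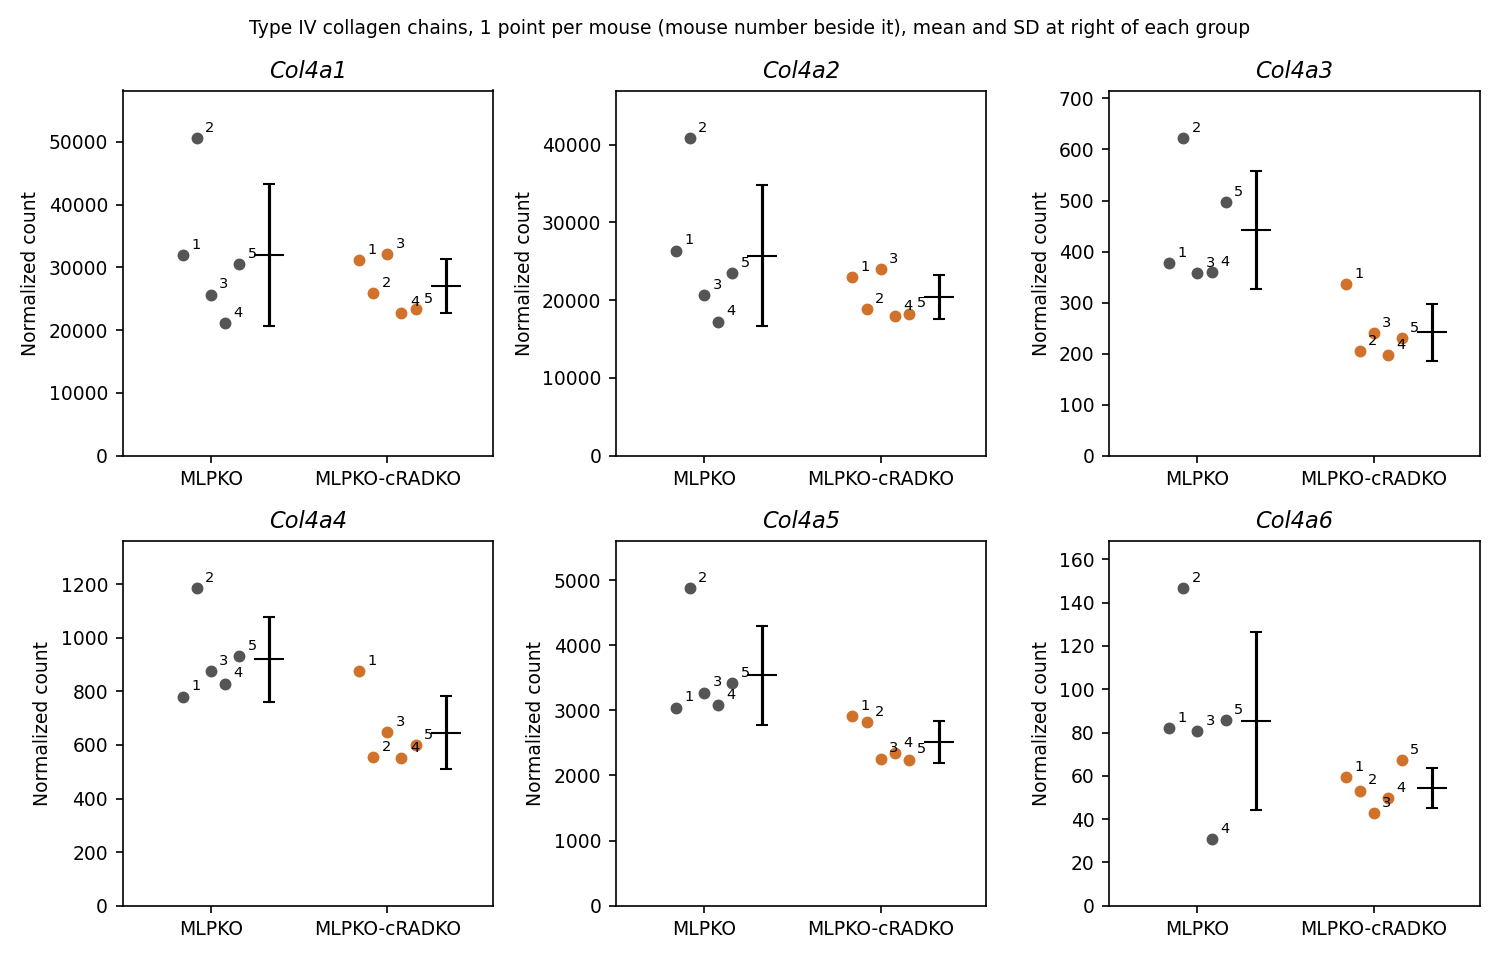
Normalized counts of the 6 type IV collagen chains, with 1 point per mouse, the mouse number beside it, and the mean and SD to the right of each genotype (each axis starts at 0). Col4a3 is 358 to 622 in MLPKO and 197 to 336 in MLPKO-cRADKO, and MLPKO mouse 2 is the highest point in every panel.

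The type IV genes lie in head-to-head pairs. The canonical starts of Col4a3 and Col4a4 are 103 bases apart on opposite strands of chromosome 1, those of Col4a1 and Col4a2 are 317 bases apart on chromosome 8, and those of Col4a5 and Col4a6 are 1282 bases apart on the X chromosome. Exons of Col4a3 and Col4a4 overlap, as do those of Col4a1 and Col4a2. The strand setting of the counting is not given in the sources used here, so reads in these overlaps may have been shared or dropped. The Col4a5 and Col4a6 genes leave a stretch between them that no exon of either covers, and the sequence upstream of each is shown because the pair shares this region while their levels differ. The windows come from RefSeq (GRCm38.p6 table), with coordinates from an exact match to GRCm39, and capitals mark CCAAT in Col4a5 and GGGCGG (here read as CCGCCC on the other strand) in Col4a6. Bases covered by an annotated exon were cut. This left 189 of 250 bases for Col4a5, whose full window also holds GGGCGG, and all 250 for Col4a6.
Col4a5 upstream, chrX:140258165-140258353, plus strand: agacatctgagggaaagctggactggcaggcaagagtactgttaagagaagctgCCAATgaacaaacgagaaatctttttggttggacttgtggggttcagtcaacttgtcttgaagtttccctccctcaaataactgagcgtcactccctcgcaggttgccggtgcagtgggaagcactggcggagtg
Col4a6 upstream, chrX:140257073-140257322, minus strand: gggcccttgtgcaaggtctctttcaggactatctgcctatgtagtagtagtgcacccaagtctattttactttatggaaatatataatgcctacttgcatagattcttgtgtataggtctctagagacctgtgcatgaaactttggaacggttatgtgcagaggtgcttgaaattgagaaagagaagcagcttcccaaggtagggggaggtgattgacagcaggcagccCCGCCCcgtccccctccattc
Of the 32851 windows of 250 bases before RefSeq gene starts, searched on both strands, 12.4% held the TATA box letters TATAAA. For CCAAT the share of windows was 33.8%, and for the GC box letters GGGCGG it was 32.7%. No match shown overlaps another, and a match says nothing of factor binding.

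The multiplexins Col15a1 and Col18a1 carry collagen domains with many interruptions and release fragments that act on vessels. Col15a1 had 8327, 12752, 6211, 4646 and 8753 in MLPKO and 9506, 7484, 5360.1, 4512 and 5122 in MLPKO-cRADKO. The genotypes were mixed (log2 fold change −0.35, SE 0.26, edgeR adjusted p = 0.48). Col18a1 had 483 to 831 in MLPKO and 521 to 924 in MLPKO-cRADKO (log2 fold change −0.02, SE 0.17, edgeR adjusted p = 0.96).

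The fibrillar class had no call in edgeR, DESeq2 or limma-voom. Of its 8 genes tested, 5 had a log2 fold change below 0 and 3 above, with a median of −0.10, which was 0.08 without MLPKO mouse 2. Type I collagen, made of Col1a1 and Col1a2 chains, forms the stiff fibrils of the heart, and type III, made of Col3a1 chains alone, forms thinner and more compliant ones.

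Col1a1 (chr11:94827050-94843868, plus strand) had 9539, 15562, 7393, 7623 and 8781 in MLPKO and 12657, 7404, 10634, 6031 and 6792 in MLPKO-cRADKO. MLPKO mouse 2 was the highest, followed by MLPKO-cRADKO mice 1 and 3, and the genotypes overlapped over most of their range. The log2 fold change was −0.17 (SE 0.24, edgeR adjusted p = 0.74), and 0.062 without MLPKO mouse 2. Col1a2 (chr6:4504814-4541555, plus strand) had 9011, 13457, 7644, 8109 and 8969.6 in MLPKO and 11629.8, 7478, 10428, 5874 and 6869.8 in MLPKO-cRADKO, with the mice in nearly the same order. Its log2 fold change was −0.16 (SE 0.20, edgeR adjusted p = 0.70), and 0.0034 without MLPKO mouse 2. The ratio of the 2 partner chains, Col1a1 to Col1a2, stayed between 0.940 and 1.16 in all 10 mice.

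Col3a1 (chr1:45350698-45395840, plus strand) had 10424, 12175, 9183, 10366 and 9229 in MLPKO and 16136, 9981, 19835, 8791 and 11502 in MLPKO-cRADKO. MLPKO-cRADKO mice 1 and 3 were above all others, and the remaining 3 lay within or below the MLPKO range. The log2 fold change was 0.37 (SE 0.20), and it did not pass (edgeR adjusted p = 0.31).

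The balance of type I to type III was taken as the ratio of Col1a1 to Col3a1 normalized counts in each mouse. It was 0.915, 1.28, 0.805, 0.735 and 0.952 in MLPKO and 0.784, 0.742, 0.536, 0.686 and 0.590 in MLPKO-cRADKO. The ratio was lower in MLPKO-cRADKO on average, and the genotypes overlapped only where MLPKO mouse 4 lay below MLPKO-cRADKO mice 1 and 2. The mean in MLPKO was 0.937 ± 0.209 (SD, n = 5) against 0.668 ± 0.103 (SD, n = 5) for MLPKO-cRADKO, a difference of −0.48 on the log2 scale (SE 0.17, two-sided exact permutation test, p = 0.024, where 0.0079 is the smallest p possible). This p was not adjusted for other tests, and neither Col1a1 nor Col3a1 passed on its own. Leaving out both MLPKO mouse 2 and MLPKO-cRADKO mouse 1 gave −0.42 (exact permutation p = 0.057). With fewer mice the smallest p possible is also larger. The related ratio of Col3a1 to Col1a2, viewed afterwards and not tested, was 0.905 to 1.28 in MLPKO and 1.33 to 1.90 in MLPKO-cRADKO.

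**Figure D5:**
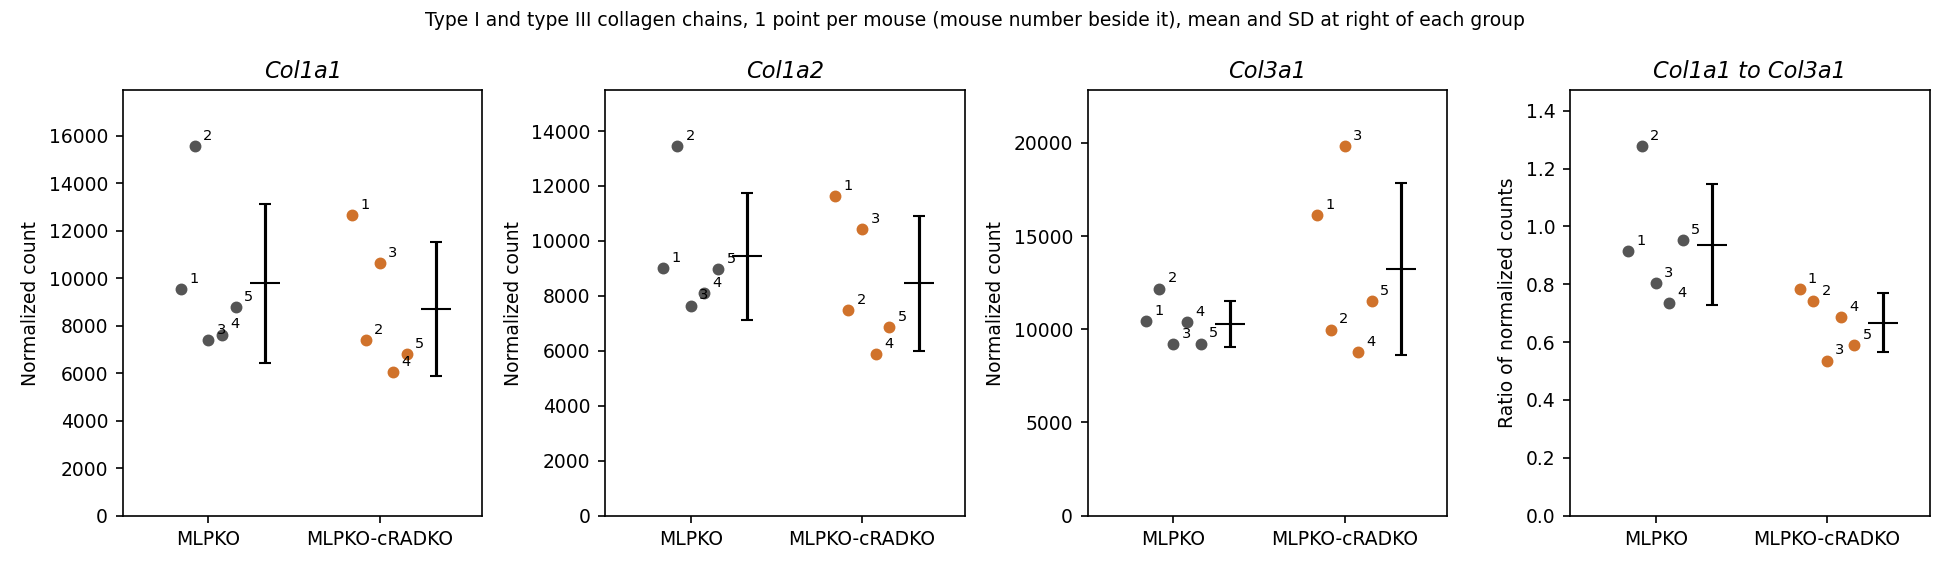
Normalized counts of Col1a1, Col1a2 and Col3a1 and the Col1a1 to Col3a1 ratio, with 1 point per mouse, the mouse number beside it, and the mean and SD to the right of each genotype (each axis starts at 0). The ratio is 0.735 to 1.28 in MLPKO and 0.536 to 0.784 in MLPKO-cRADKO.

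The sequences before the starts of Col1a2 and Col3a1 are shown because the 2 genes code for major type I and type III chains. Their fold changes had opposite signs with all mice, but neither passed, and Col1a2 was at 0.0034 without MLPKO mouse 2. Capitals mark GGGCGG in Col1a2, present at 2 places, and TATAAA in Col3a1. Exon bases were cut here too, which left 123 of 250 bases for Col1a2, and its full window also holds CCAAT.
Col1a2 upstream, chr6:4505370-4505492, plus strand: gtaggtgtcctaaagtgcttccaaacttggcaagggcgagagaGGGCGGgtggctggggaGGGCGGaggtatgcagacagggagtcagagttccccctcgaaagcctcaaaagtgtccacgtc
Col3a1 upstream, chr1:45350448-45350697, plus strand: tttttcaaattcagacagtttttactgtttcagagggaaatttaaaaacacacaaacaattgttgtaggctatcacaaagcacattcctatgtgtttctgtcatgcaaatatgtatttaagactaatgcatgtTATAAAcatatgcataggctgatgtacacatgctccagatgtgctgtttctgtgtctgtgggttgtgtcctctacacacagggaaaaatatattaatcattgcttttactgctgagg

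The minor fibrillar chains of type V, which set the width of type I fibrils, differed little. Col5a1, Col5a2 and Col5a3 had log2 fold changes of 0.01, −0.07 and 0.02 (edgeR adjusted p = 0.98, 0.89 and 0.96). The Col5a1 to Col1a1 ratio was 0.226 to 0.340 in MLPKO and 0.284 to 0.386 in MLPKO-cRADKO. Col27a1, a fibrillar chain of cartilage, and Col11a2, a minor chain of cartilage fibrils, had −0.13 and −0.23 (edgeR adjusted p = 0.75 and 0.71). Without MLPKO mouse 2, Col5a2 was at 0.12 and Col27a1 at 0.046. Col11a2 was low, at 27.4 to 61.2 in MLPKO and 16.8 to 52.0 in MLPKO-cRADKO.

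The sum of the activated fibroblast markers was highest in the same 3 mice as the fibrillar genes. This was true of Postn and Comp but not of Cthrc1, Fap, Meox1 or Cilp taken alone. The summed normalized count of the 6 markers Postn, Cthrc1, Comp, Fap, Meox1 and Cilp was 5862, 15063, 7344, 6894 and 6122 in MLPKO and 11895, 3595, 10019, 3528 and 4519 in MLPKO-cRADKO. These 3 mice had the highest share of counts in fibrillar collagen genes, with MLPKO mouse 2 at 0.116%, MLPKO-cRADKO mouse 1 at 0.119% and MLPKO-cRADKO mouse 3 at 0.126%. The other 7 mice were between 0.0625% and 0.0860%. The 8 fibroblast markers summed to 76734 to 94778 in MLPKO and 81955 to 113789 in MLPKO-cRADKO. In bulk tissue, fewer cells of a type and less RNA per cell cannot be told apart, and the part of cell makeup in these results was not tested.

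Among the other types, no gene was called by edgeR. Of 19 tested, 12 had a log2 fold change below 0 and 7 above, with a median of −0.23, which was 0.02 without MLPKO mouse 2. Type VI chains form beaded filaments around cells. Col6a1 had 4609, 6049.7, 3955, 3879.7 and 4434 in MLPKO and 6211, 4103, 4495, 3093 and 3641 in MLPKO-cRADKO. Col6a2 had 5781, 7052, 4512, 4326 and 5233 in MLPKO and 7508, 4889, 5046, 3869.9 and 3994 in MLPKO-cRADKO. In both, MLPKO-cRADKO mouse 1 was the highest of all and MLPKO-cRADKO mouse 4 the lowest, with log2 fold changes of −0.09 for each (edgeR adjusted p = 0.81 and 0.83), and 0.029 and 0.028 without MLPKO mouse 2. The 2 genes kept a ratio of 0.797 to 0.912 in all mice. Col6a3, the third chain of their trimer, had 2154 to 3202 in MLPKO and 1869.6 to 3905 in MLPKO-cRADKO, with a log2 fold change of 0.04 (edgeR adjusted p = 0.94) whose sign turned under 7 of the alternatives.

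Col6a6, a rarer chain of the same type, was chosen after its values were seen. It had 403, 333, 417, 481 and 348 in MLPKO and 512, 617, 392, 573 and 575 in MLPKO-cRADKO. Only MLPKO-cRADKO mouse 3 lay within the MLPKO range (log2 fold change 0.43, SE 0.13, edgeR adjusted p = 0.095, DESeq2 adjusted p = 0.039), and without MLPKO mouse 4 the edgeR adjusted p was 0.049. Its exons overlap those of Pik3r4 on the opposite strand.

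The fibril-associated chains sit on the surface of fibrils and differed among themselves. Col9a2 (chr4:120896582-120912523, plus strand), best known from cartilage, had 63.1, 151, 55.5, 55.1 and 113 in MLPKO and 60.6, 17.1, 6.8, 9.2 and 15.9 in MLPKO-cRADKO. The genotypes overlapped through MLPKO-cRADKO mouse 1 alone. The log2 fold change was −2.02 (SE 0.54), which did not pass in edgeR (adjusted p = 0.064) and passed in DESeq2 (adjusted p = 0.0039) and limma-voom (adjusted p = 0.041). In edgeR it passed without MLPKO-cRADKO mouse 1 (log2 fold change −2.80, adjusted p = 0.022) or MLPKO mouse 4 (adjusted p = 0.048), and not without any other single mouse. Its partner chains were under the count filter, with 0 to 2 counts per mouse for Col9a1 and 0 to 14 for Col9a3.

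MLPKO-cRADKO mouse 1 also stood apart in the sum of the atrial markers and in the gene Chad. The summed normalized count of the atrial markers Myl4, Myl7, Sln and Bmp10 was 1016 in that mouse and 92.6 to 258 in the other 9. Chad, a cartilage and valve marker, was 148 there and 0 to 34.1 elsewhere. The other markers of that list did not set the mouse apart. Sox9 was 220 there and 97.6 to 309 elsewhere, and Acan was 17.3 there and 0 to 19.1 elsewhere. Matn1 and Matn3 had 3 or fewer counts in every mouse. The 5 cartilage and valve markers summed to 386 against 137 to 330, and Chad made up 148 of the 386. Their part in the Col9a2, Col2a1 and Col4a4 values was not tested.

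Col14a1, which orders fibrils in tendon and skin and was chosen after its values were seen, had 396, 642, 535, 645 and 407 in MLPKO and 789, 511, 1410.3, 672 and 763 in MLPKO-cRADKO. MLPKO-cRADKO mouse 2 lay within the MLPKO range and the other 4 were above it (log2 fold change 0.66, SE 0.25, edgeR adjusted p = 0.15). Col12a1, a related chain of loaded tissue, was dominated by MLPKO mouse 2 at 713, with 85.7 to 157 in the other MLPKO mice and 58.0 to 360 in MLPKO-cRADKO. Its log2 fold change was −0.66 with an SE of 0.69, and 0.33 without MLPKO mouse 2.

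The short network-forming chains Col8a1 and Col8a2, found in vessel walls and under endothelium, were both below 0 on the log2 scale. Col8a1 had 3212, 5345, 2469, 2487 and 3779 in MLPKO and 4197, 1752, 2705, 1361 and 1750.2 in MLPKO-cRADKO. MLPKO-cRADKO mice 2, 4 and 5 were below all MLPKO mice and mouse 1 was above all but 1 of them (log2 fold change −0.56, SE 0.30, edgeR adjusted p = 0.32). Col8a2 was 47.8, 176, 55.5, 68.4 and 60.2 in MLPKO and 104, 52.2, 33.9, 25.8 and 18.7 in MLPKO-cRADKO (log2 fold change −0.80, SE 0.49, edgeR adjusted p = 0.37).

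Col26a1, a small collagen of unsettled role, had 9.6, 44.5, 21.2, 30.9 and 25.5 in MLPKO and 19.8, 5.4, 0, 11 and 6.5 in MLPKO-cRADKO. Raw counts were at most 34 in any mouse, and the fold change of −1.61 on the log2 scale (SE 0.60) did not pass (edgeR adjusted p = 0.15). The gene passed the count filter mostly through MLPKO, with 4 of its 6 mice above 10 counts in that genotype. DESeq2 gave no adjusted p for it or for Col25a1. The 3 transmembrane collagens tested, Col13a1, Col23a1 and Col25a1, had log2 fold changes of 0.30, −0.34 and 0.03 (edgeR adjusted p = 0.68, 0.18 and 0.97), and Col7a1 of the anchoring fibrils had −0.27 (0.82).

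The genes that make, modify, bind or surround collagen were counted from fixed lists in the same comparison. Of 35 genes for hydroxylation, folding and export, propeptide removal and crosslinking, 1 was called lower by edgeR, where 1.80% of all genes were, with a list median of −0.07. DESeq2 called 3 lower and 1 higher, where 5.84% and 3.81% of all genes were. The gene that edgeR called lower was P4ha2, a catalytic subunit of prolyl 4-hydroxylase, which stabilizes the helix. P4ha2 had 3439, 3718, 3034, 2581 and 3522 in MLPKO and 2518, 2346, 2551, 2269 and 2088 in MLPKO-cRADKO, with no overlap (log2 fold change −0.47, SE 0.10, edgeR adjusted p = 0.031). Its call was lost without MLPKO mouse 1 (0.075) or 5 (0.081) and without MLPKO-cRADKO mouse 2 (0.063), 3 (0.057), 4 (0.073) or 5 (0.079). The 5 lysyl oxidases, which crosslink fibrils, had a median of −0.11 and no call.

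Of 10 collagen receptors tested, edgeR called 1 lower, Ddr1, and none higher, where 1.80% and 0.944% of all genes were called. DESeq2 also called the integrin gene Itga1 higher (log2 fold change 0.18, adjusted p = 0.037), where it called 3.81% of all genes higher. Ddr1, a receptor tyrosine kinase that binds type IV and fibrillar collagens, had 2249, 2980.3, 2331, 2127 and 2117 in MLPKO and 1739, 1479.8, 1302, 1463 and 1393 in MLPKO-cRADKO. Every MLPKO-cRADKO mouse was below every MLPKO mouse (log2 fold change −0.68, SE 0.10, edgeR adjusted p = 0.016), and the call held without each mouse in turn. The remaining receptors had no edgeR call, including Ddr2 and the integrin genes Itga1, Itga2, Itga10, Itga11 and Itgb1.

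Of 16 fibril partners tested, edgeR called 2 higher and none lower, where 0.944% and 1.80% of all genes were called. DESeq2 also called Tnxb, the gene for tenascin X, higher (log2 fold change 0.45, adjusted p = 0.017), where it called 3.81% of all genes higher. Dpt, the gene for dermatopontin, which binds decorin and fibrils, had 2558, 2127, 2237, 2147 and 2059 in MLPKO and 5034, 3834, 5099, 3377 and 3884 in MLPKO-cRADKO. The genotypes were far apart, with the MLPKO-cRADKO mean at 191% of MLPKO (log2 fold change 0.93, SE 0.12, edgeR adjusted p = 0.0066), and Dpt is also on the fibroblast marker list. Thbs2, the gene for thrombospondin 2, which shapes fibrils, had 603, 532, 831, 902 and 547 in MLPKO and 1101, 1338, 1154, 1248 and 1423 in MLPKO-cRADKO. There was no overlap (log2 fold change 0.87, SE 0.15, edgeR adjusted p = 0.020), and the call was lost without MLPKO mouse 5 (0.055) or MLPKO-cRADKO mouse 5 (0.059). The small proteoglycans that coat fibrils, among them Dcn, Bgn and Lum, had no call.

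Of 11 basement membrane partners, edgeR called 1 higher and none lower, where 0.944% and 1.80% of all genes were called. DESeq2 also called Nid2 (adjusted p = 0.034) and Pxdn (adjusted p = 0.036) higher and the laminin gene Lama2 lower (log2 fold change −0.37, adjusted p = 0.031). Its shares over all genes were 3.81% higher and 5.84% lower. Lama4, the laminin chain of vessel walls and muscle, had 3407, 3785, 3307, 3319.6 and 3608 in MLPKO and 4625, 5233, 4111, 4064 and 4518 in MLPKO-cRADKO, with no overlap (log2 fold change 0.37, SE 0.08, edgeR adjusted p = 0.029). Its call was lost without MLPKO mouse 1 (0.070), 3 (0.054) or 5 (0.067) and without MLPKO-cRADKO mouse 1 (0.054) or 5 (0.074). The list median was 0.02, against −0.42 for the basement membrane collagens, and this difference was not tested. The 6 endothelial markers summed to 27825 to 31345 in MLPKO and 32437 to 37464 in MLPKO-cRADKO, which did not overlap, and all 6 had fold changes above 0. The 6 mural cell markers summed to 32686 to 41512 and 40451 to 44961. The 6 cardiomyocyte markers summed to 2312609 to 2714527 in MLPKO and 1848526 to 2268451 in MLPKO-cRADKO, which did not overlap. Most of this sum was Myh6, which overlapped, at 1365432 to 1662756 in MLPKO and 1050361 to 1421006 in MLPKO-cRADKO. By fold change, 5 of the 6 cardiomyocyte markers were below 0 and 1 was above. The 6 macrophage markers summed to 3613 to 5167 in MLPKO and 4540.2 to 7673 in MLPKO-cRADKO, the 4 epicardial markers to 788 to 1705 and 625 to 1305, and the 4 Schwann cell markers to 404 to 523 and 291 to 495. All 6 macrophage markers had fold changes above 0 (median 0.46 on the log2 scale), as did 5 of the 6 mural cell markers. All 4 epicardial markers (median −0.69) and the 3 Schwann cell markers tested (median −0.30) were below 0. The 7 skeletal muscle markers summed to at most 123. Of the markers, edgeR called Dpt and the pericyte gene Rgs5 higher (log2 fold change 0.44, adjusted p = 0.032) and the sarcomere gene Tnnt2 lower (−0.57, adjusted p = 0.019). Their part in these results was not tested.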

How the data were processed

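The deposited values are raw counts per gene, which the authors made with STAR (GRCm39) and featureCounts. Their versions, and the settings for strand and read pairs, are not given in the sources used here. Of 60676 genes, 3491 had no value and were left out. Gene symbols and positions came from GENCODE M39, which matched 56629 of the 57185 others. In each library, 73.7% to 80.3% of the counts from 1 to 20 were even. Each library was taken as 1 mouse, and groups came from the labels.

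Genes passing the count filter, without 1779 predicted Gm and Rik genes, were normalized by TMM and tested in edgeR 4.0.16 (R 4.3.3) by quasi-likelihood, with Benjamini-Hochberg adjustment over all 13453. Standard errors are those of the fitted log2 fold change. A normalized count is a count scaled to the mean effective library size, and a level per kb divides it by the length of the canonical transcript. Alternatives were DESeq2 1.42.0, limma 3.58.1 (voom), other size factors and filters, a robust fit, the mouse number as a block, and each mouse left out. Leaving out MLPKO mouse 2 together with MLPKO-cRADKO mouse 1 was an alternative chosen after seeing the data. The Col1a1 to Col3a1 ratio was tested by exact permutation over 252 splits (scipy 1.17.1).

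The members and gene lists were chosen with earlier results of these data known. The rule for named collagen genes took those with an edgeR adjusted p under 0.05 or no overlap, the 3 with the highest level per length and the 2 with the largest fold change in each class, and chains sharing a trimer or promoter with them. For partner genes it took those with an edgeR adjusted p under 0.05. Other collagen genes are given to account for the family. Marker lists covered fibroblasts, activated fibroblasts, mural cells, endothelium, cardiomyocytes, macrophages, skeletal muscle, atrium, cartilage and valve, epicardium and Schwann cells.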

Additional observations from a re-analysis of the deposited data

Results flagged for a closer look

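Within each genotype of 5 mice, 6 values stood far from the other 4 of their group by the Dixon ratio, which chance alone exceeds in about 1 in 20 groups. Among 54 groups looked at, 4 of the collagen values belong to MLPKO mouse 2. Col1a1 was 15562 there against 7393 to 9539 in the other MLPKO mice, Col1a2 was 13457 against 7644 to 9011, Col4a5 was 4876 against 3042 to 3412, and Col8a2 was 176 against 47.8 to 68.4. The receptor gene Ddr1 was 2980.3 in the same mouse against 2117 to 2331. In MLPKO-cRADKO, Col9a2 was 60.6 in mouse 1 against 6.8 to 17.1 in the other mice.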

How the results depend on the processing

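The number of collagen genes called lower was 1 in the comparison as reported, 4 with DESeq2, 2 with limma-voom, 0 with the mouse number as a replicate block and 4 without MLPKO mouse 2 and MLPKO-cRADKO mouse 1. It ranged from 0 to 3 when each mouse was left out. The number called higher was 0, but 1 with DESeq2, and 0 to 1 with each mouse left out (1 without MLPKO mouse 4). The number of collagen making genes called was 1, but 4 with DESeq2, 0 without both mice, and 0 to 3 with each mouse left out. The number of partner genes called was 4, but 9 with DESeq2 and 2 to 7 with each mouse left out. Other size factors, filters, predicted genes kept and the robust fit left these 4 numbers within 1.5 times. Over all genes, 47 to 826 were called with each mouse left out, against 369 (242 lower and 127 higher), and upper quartile size factors gave 205 lower and 175 higher. DESeq2 called 1298 of all genes, 786 lower and 512 higher. The Col1a1 to Col3a1 ratio (log2 difference −0.48) was past the threshold on the linear scale and without each mouse, but not without both mice (−0.42, exact permutation p = 0.057). Raw counts give the same ratio, because the scaling of a library cancels within a mouse, so they are no separate check. Mice of the same number deviated together only weakly (correlations of deviations 0.025, 0.066, 0.097, 0.15 and −0.044). The labels do not say whether they were paired, and these correlations cannot settle it. With the mouse number as a block the Col4a3 fold change was −0.86 (edgeR adjusted p = 0.060). With a mouse left out, the fold change turned sign in 17 of the 35 collagen genes. Those among the named genes were Col1a1 (−0.34 to 0.062), Col1a2 (−0.30 to 0.0034), Col6a1 (−0.26 to 0.029) and Col6a2 (−0.27 to 0.028), each above 0 without MLPKO mouse 2 and Col6a1 also without MLPKO-cRADKO mouse 4 (0.014), and Col6a3 (−0.13 to 0.15, below 0 without MLPKO mouse 3 or 4 or MLPKO-cRADKO mouse 1 or 2). Col6a3 also turned with limma-voom (−0.014), with the block (−0.011) and without both mice (−0.050). The cause was not tested. With 5 mice per genotype and raw counts under 40, Col26a1, Col25a1 and similar genes allow only large differences to be seen.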
